A study of Mus musculus with 9 samples.

Results

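The unirradiated skin of BALB/c-nude mice was described from its 3 libraries, labelled NoUVB 1, NoUVB 2 and NoUVB 3, of 9 libraries in the series. These 3 were chosen by their label alone, and no measured value entered the choice. The other 6 libraries are dorsal skin exposed to ultraviolet B (UVB) light every other day for 8 weeks, from 60 up to 240 mJ/cm2, then given saline (UVB_Saline, 3 libraries) or an mRNA for human type III collagen (UVB_hCOL3A1, 3 libraries), and here they serve only as a yardstick. The labels name collection at day 28, place all 9 libraries in batch 1, and give neither sex nor age, and they do not say whether each library is a separate animal or a pool. Any p or spread therefore measures the variation between these libraries, which may be partly technical.

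Nude mice carry a loss-of-function allele of Foxn1, a transcription factor needed by the thymus epithelium and by the hair follicle. They lack a thymus, so conventional T cells are scarce, and their follicles form but make shafts that bend and break off. BALB/c mice are also albino through the tyrosinase gene Tyr. Skin holds a stratified epidermis over a collagen-rich dermis, with hair follicles, sebaceous glands, fat and, beneath the dermis, a sheet of skeletal muscle called the panniculus carnosus.

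Estimated counts totalled 9571039, 7640172 and 10744497 in NoUVB 1, 2 and 3. Ribosomal and small structural RNAs, which a total RNA preparation retains, took 63.4%, 27.2% and 52.7% of them, and Rn18s-rs5, an 18S ribosomal RNA gene, took 55.3%, 7.71% and 37.7%. Leaving these classes out left 3501629, 5560012 and 5077751 counts, so NoUVB 1 is the shallowest. Levels below are in CPM (the counts-per-million scale, over what remained) or, to compare genes, in TPM, which also divide by the joined exon length. Wilson 95% intervals of the shares of counts given here reach at most 0.046 percentage points to either side, and 3 counts, the limit that a count of 0 allows, correspond to 0.873, 0.552 and 0.59 CPM. Both cover counting error only.

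Mitochondrial transcripts lead the unirradiated skin, and inner root sheath and keratinocyte genes stand among the most abundant of the others. Of the 29877 genes with any count, 16731 reached 1 CPM in all 3 libraries, of which 13976 are protein-coding and 2024 long noncoding. The 100 most abundant genes held 26.1%, 24.7% and 24.7% of the counts, a mean of 25.2% ± 0.830 (SD, n = 3).

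By level per length, 15 of the first 25 genes are mitochondrially encoded or nuclear copies of such genes. The first was mt-Co1, a subunit of cytochrome c oxidase, at 46392, 54511 and 48969 TPM. The copies named Gm10925, Gm28661 and Gm28437 match mt-Atp6, mt-Co2 and mt-Co3 over 100% of aligned bases, so estimated counts can pass between a gene and its copy. Thus mt-Co3 stood at 0.21, 474 and 128 CPM, but at 3081, 3960 and 3718 CPM with its copies. The mitochondrial genes and their copies together came to 66224, 89734 and 76685 CPM, highest in NoUVB 2.

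Tchh, which encodes trichohyalin, the protein that hardens the inner root sheath, had the highest mean level per length of the nuclear protein-coding genes. Its level was 9819, 7192 and 4786 TPM, a mean of 7266 ± 2517 (SD, n = 3), lowest in NoUVB 3. It did not lead in every library, since Lars2 was higher in NoUVB 1, at 11519 TPM, and Eef1a1 and Krt10 were higher in NoUVB 3, at 6772 and 5496 TPM. Eef1a1, a translation elongation factor, averaged 6461 ± 309 TPM (SD, n = 3) and differed little between libraries. Next among the protein-coding genes came Lars2, a mitochondrial leucyl-tRNA synthetase, then Krt10 at 4177 TPM, B2m at 4059, Krt71 at 4009, Rps3a1 at 3683 and Krt5 at 3076. B2m is the light chain of MHC class I and Rps3a1 is a ribosomal protein. The remaining members of the 25 include the nuclear noncoding RNA Malat1 at 10816 TPM and the pseudogene Gm12896 at 14365 TPM.

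Lars2 was the least even of these genes, at 37353, 4904 and 12839 CPM. It was highest in the library richest in Rn18s-rs5 and lowest in the one poorest in it, and the part of that share in its level was not tested. Its mean was 18365 CPM, and 8871 CPM without NoUVB 1.

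The sequences before the starts of a few leading epidermal and follicular genes are shown for a feature counted below over whole lists, the letters TATAAA. The stretches below are the 60 bases before the RefSeq start on GRCm38.p6, written 5′ to 3′ on the gene's strand, with TATAAA in capitals. The first 3 hold it, and Tchh and the basal keratin Krt5 do not. Krt71 and Krt25 are inner root sheath keratins and Krt10 is the keratin of suprabasal epidermis.
Krt71, chr15:101743098-101743157, minus strand: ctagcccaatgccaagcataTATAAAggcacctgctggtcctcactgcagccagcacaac
Krt25, chr11:99322952-99323011, minus strand: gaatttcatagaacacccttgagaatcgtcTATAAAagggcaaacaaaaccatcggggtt
Krt10, chr11:99389365-99389424, minus strand: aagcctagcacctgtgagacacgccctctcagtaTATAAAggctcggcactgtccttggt
Tchh, chr3:93442270-93442329, plus strand: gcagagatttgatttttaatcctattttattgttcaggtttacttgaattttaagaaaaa
Krt5, chr15:101712906-101712965, minus strand: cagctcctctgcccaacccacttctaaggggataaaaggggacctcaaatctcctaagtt

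TATAAA was searched on both strands of the 50 bases before each start. It was found in 1127 of 27025 RefSeq promoters, 4.17%, and in 346 of the 10875 matched protein-coding genes detected in this skin, 3.18%. Of the 100 most abundant nuclear protein-coding genes, 79 matched and 10 held it, 12.7%. Among the matched members it was found in 19 of 28 keratin-associated protein genes, 5 of 9 hair shaft keratins, 6 of 11 inner root sheath genes and 6 of 19 genes of cornified epidermis. It was found in 0 of 6 basal keratinocyte genes, 0 of 8 fibrillar collagens, 0 of 15 clock genes, 1 of 10 adipocyte genes and 3 of 16 skeletal muscle genes. Members of a family share ancestry and are not independent, a match is a description and not a known site, and the motif and lists were chosen after the levels were seen. A window of 60 bases, added after a match of Flg 53 bases before its start had been seen, gave 20 of 28, 5 of 9, 6 of 11 and 7 of 19, against 4.66% of all promoters.

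Of the hair lists in this skin, the inner root sheath had the highest sum. Hair shaft keratins and keratin-associated proteins had much lower ones. The 12 inner root sheath genes summed to 24451, 20656 and 12903 CPM, and all 12 were lowest in NoUVB 3. Tchh alone made up most of each sum, at 16719, 13593 and 8533 CPM. Krt71 stood at 3272, 3024 and 1770 CPM, Krt25 at 1771, 1490 and 911, and Krt27 at 1122, 996 and 603. Across all detected genes, 33.6% had their highest level in NoUVB 1, 33.4% in NoUVB 2 and 33% in NoUVB 3, against 9, 3 and 0 of the 12 inner root sheath genes. The irradiated libraries ranged from 2693 to 18758 CPM for the same sum and overlap the unirradiated ones.

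Hair shaft keratins, which build the fibre itself, summed to 589, 492 and 382 CPM, with 13 of 14 detected and 11 highest in NoUVB 1. The most abundant of those matched were Krt35, at 106, 90.4 and 68.3 CPM, and Krt31, at 90.3, 88.2 and 60.7 CPM. Per length, the inner root sheath keratins exceeded the hair shaft keratins by 11.3, 12.2 and 9.51 times in the 3 libraries. Krt85, another hair shaft keratin, was not matched by name and is in neither the sum nor the ratio. Keratin-associated proteins, which cross-link the shaft keratins, summed to 476, 516 and 340 CPM, with 23 of 30 detected and 5 at 0 in all 3 libraries. Krtap3-1 led them at 102, 129 and 66.9 CPM. Per length, these short genes summed higher than the hair shaft keratins, at 2013, 2025 and 1381 TPM against 1061, 807 and 659. The ratio above leaves them out. Krt81, Krt83 and Krt86, and members of 1 Krtap family, are near-identical, so their single levels are uncertain.

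Regulators of the follicle were all detected, 18 of 18. Dlx3, a homeobox factor of the hair matrix, led at 223, 243 and 160 CPM, and Hoxc13, which drives hair keratin genes, stood at 66.7, 72.5 and 53.3. Foxn1 itself was present at 43.4, 44 and 28.7 CPM, from 149, 239 and 146 counts. Counts over a whole gene do not read the nude allele, so this level says nothing about the protein.

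**Figure D1:**
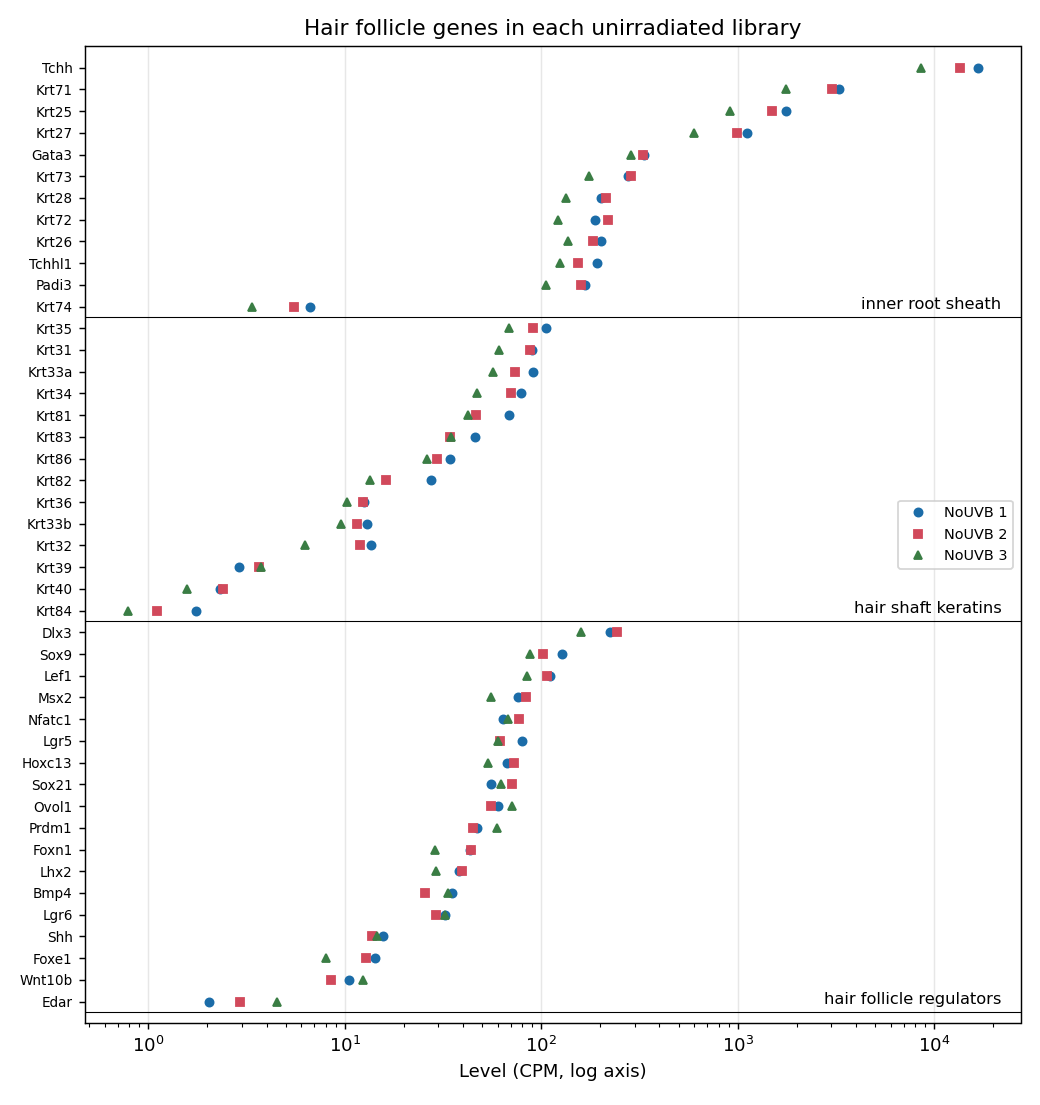
Levels in CPM (log axis) of inner root sheath genes, hair shaft keratins and follicle regulators, 1 point for each unirradiated library. Tchh sits at 16719, 13593 and 8533 CPM, and all 12 inner root sheath genes are lowest in NoUVB 3 (triangles).

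Basal keratinocyte genes, which mark the proliferating layer, were the most even of the epidermal lists. All 10 were detected, and they summed to 7969, 7624 and 7548 CPM. Krt5 stood at 2150, 2091 and 1983 CPM and Krt14, its partner keratin, at 1493, 1388 and 1582. Trp63, the master factor of stratified epithelium, stood at 560, 553 and 542 CPM.

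Suprabasal and cornified genes were highest in NoUVB 3, where the inner root sheath genes were lowest, at sums of 9715, 11538 and 15956 CPM. Of the 22 detected, 17 were highest in NoUVB 3 and 17 lowest in NoUVB 1. Flg, which encodes filaggrin, the keratin-bundling protein of the stratum corneum, stood at 780, 1296 and 2528 CPM, and its relative Hrnr at 194, 315 and 636. Krt10 stood at 2124, 2469 and 3557 CPM, and Dsc1, a desmosomal cadherin, stayed at 484, 454 and 478. Per length, Krt10 was 1.18, 1.48 and 1.87 times Krt14.

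Sebaceous genes were also highest in NoUVB 3, at 4214, 3750 and 4905 CPM, with 14 of 16 highest in NoUVB 3. Scd1, a fatty acid desaturase, made up most of the sum, at 2360, 2150 and 2531 CPM. Krt17, Krt6a and Krt16, keratins that also serve the follicle and rise in wounds, stood at 797, 586 and 580, 399, 286 and 268, and 110, 103 and 144 CPM. Estimated counts of Krt6a and Krt6b, and of Krt14, Krt16 and Krt17, can pass between these similar genes.

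Fibrillar collagens, which form the dermal fibres, summed to 11858, 10782 and 13499 CPM. Col1a1 stood at 5737, 4825 and 6480 CPM and Col3a1 at 2402, 2475 and 2901. Per length, Col1a1 was 3.57, 2.92 and 3.34 times Col3a1. Eln, the elastin gene, was far lower, at 74.2, 102 and 95.4 CPM, while Fbn1, the main microfibril protein, stood at 440, 442 and 415.

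By the ratio of the highest to the lowest sum, skeletal muscle separated the libraries most among the 44 lists, with 10966 CPM in NoUVB 1 against 3966 and 3749 in NoUVB 2 and 3. All 19 detected muscle genes were highest in NoUVB 1, against 33.6% of all detected genes. Of the 10987 genes of at least 10 CPM, 50, or 0.455%, were at least 2-fold above both other libraries there. Of these 50, 17 were of this list. Myh1, a fast myosin heavy chain, stood at 942, 238 and 249 CPM, Acta1, skeletal actin, at 443, 140 and 150, and Ttn, the giant sarcomere spring, at 6336, 2273 and 2111. The mean sum of 6227 CPM fell to 3858 without NoUVB 1. The irradiated libraries spanned 2364 to 13543 CPM, so the 3 unirradiated values lie within their range.

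Fat genes were highest in NoUVB 2, at 5354 CPM, against 3185 in NoUVB 1 and 2120 in NoUVB 3. Of 15 adipocyte genes 14 peaked there. Adipoq, the hormone adiponectin, stood at 90.5, 193 and 55.7 CPM, Cfd, adipsin, at 485, 866 and 304, and Car3 at 607, 1035 and 358. Vessel and blood genes had the same order at the top: blood endothelium reached 668, 1077 and 727 CPM with 12 of 12 highest in NoUVB 2, and red blood cell genes 72.9, 173 and 68.2, with 5 of 5. In bulk tissue, fewer cells of a type and less RNA per cell cannot be told apart.

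**Figure D2:**
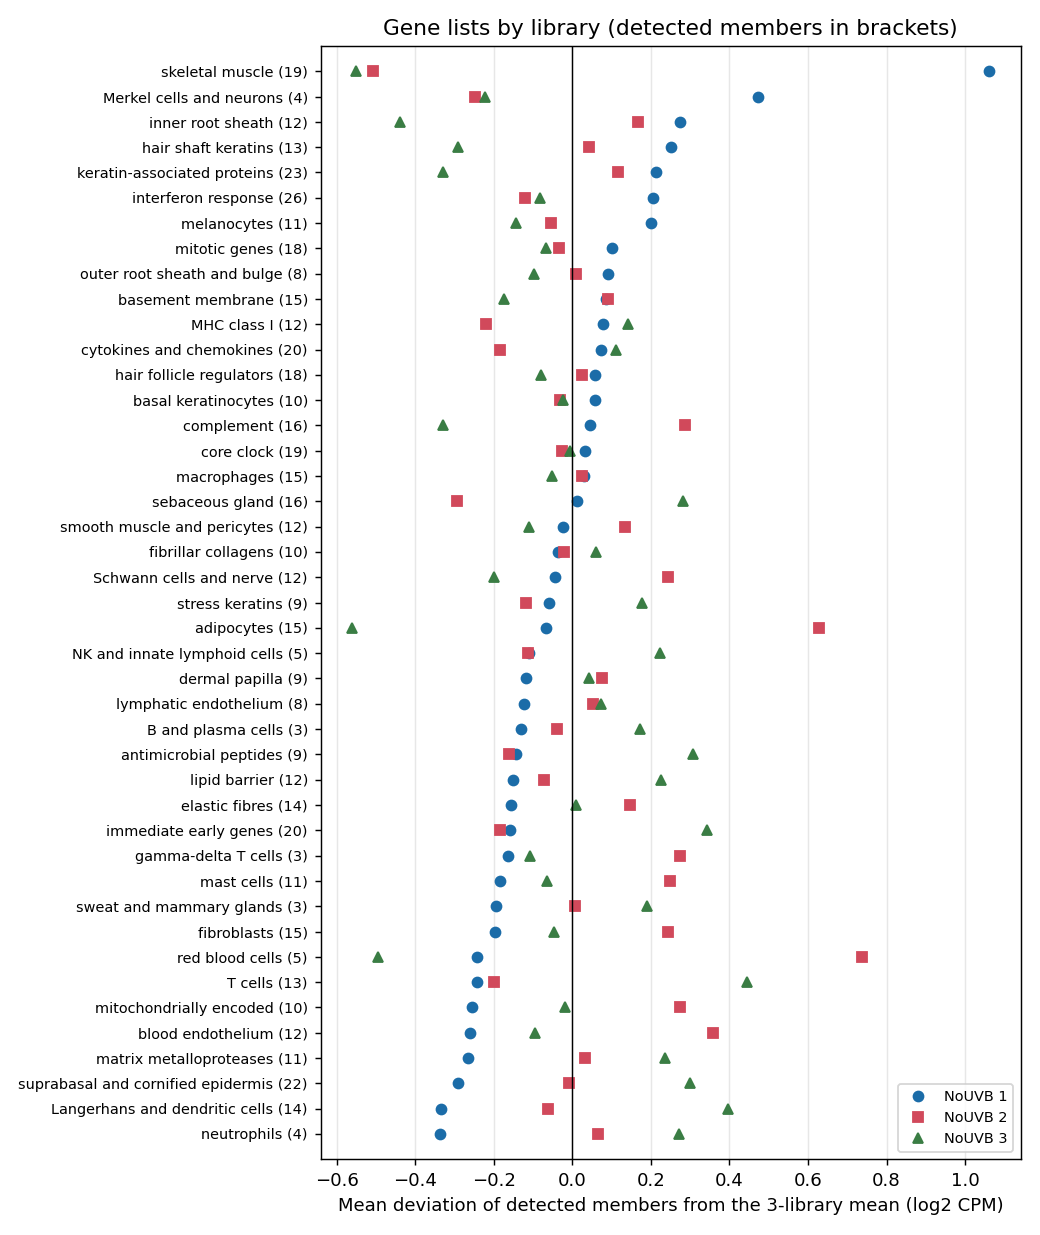
Mean deviation of each list's detected members from their 3-library mean (log2 CPM), 1 point for each unirradiated library, for lists with at least 3 detected members. Skeletal muscle lies at 1.06, -0.51 and -0.55, adipocytes at -0.07, 0.63 and -0.56, and basal keratinocytes near 0.

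Detected were 3 of 10 gamma-delta T cell, 5 of 15 natural killer and innate lymphoid, and 3 of 15 B and plasma cell genes. In each of these lists, 2 genes were at 0 in all 3 libraries. All macrophage genes and most mast cell genes were detected. Of the T cell genes 13 of 17 were detected, but the sum of 198, 179 and 253 CPM is mostly Bcl11b, at 136, 118 and 155, which keratinocytes also express. Cd3e, a chain of the T cell receptor complex, gave 10.7, 5.15 and 6.89 CPM. Trac, the constant region of the alpha receptor chain, gave 7, 10 and 24 counts, and Foxp3, the regulatory T cell factor, 8.4, 22.6 and 50.1. Cd4 stood at 11.4, 12.2 and 23.2 CPM, while Cd8a gave 9, 4 and 12 counts. None of these 5 receptor, coreceptor and factor genes was at 0 in any library.

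Trdc, the constant region of the delta chain, gave 9, 30.6 and 19 counts, while Trgv6 and Il17a were at 0 throughout. Of the natural killer genes, Ncr1 gave 1, 1 and 3 counts and Gzma and Klra8 were at 0 in each library. The list's sum of 558, 570 and 607 CPM is mostly Gata3 and Rora, which skin epithelium also expresses. Of the B cell genes, Ms4a1 and Pax5 were at 0 in every library. Ighm, the IgM heavy chain, nonetheless stood at 28.2, 30.4 and 23.02 CPM, and Igkc, the kappa light chain, at 9.02, 6.44 and 19.3. The B and plasma cell sum was 44.8, 45.5 and 59.2 CPM, within the irradiated range of 28.8 to 1287 CPM.

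Macrophage genes, 15 of 15 detected, summed to 1323, 1329 and 1229 CPM, led by Lyz2, a lysozyme, at 322, 321 and 407. Langerhans and dendritic cell genes reached 1084, 1213 and 1674 CPM, with 11 of 14 highest in NoUVB 3. Cd207, langerin, which marks Langerhans cells, stood at 17.8, 18.6 and 32.9 CPM, and Cd74, the MHC class II chaperone, at 446, 512 and 668. Mast cell genes summed to 251, 322 and 276 CPM, with the mast cell protease Cpa3 at 39.3, 54.9 and 54.5. Neutrophil genes were sparse, 4 of 13 detected, with Ly6g and Retnlg at 0.

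The sum of interferon response genes was highest in NoUVB 1, at 874, 480 and 626 CPM. Of 26 detected members, 14 were highest there, 8 in NoUVB 2 and 4 in NoUVB 3. Of all detected genes, 33.6% were highest in NoUVB 1. Of the 25 members tested, 8 differed beyond counting error, against 20.8% of all genes tested. Gbp2, a guanylate-binding GTPase, stood at 99.7, 29.9 and 58.0 CPM, and Iigp1, an interferon-inducible GTPase, at 142, 43.0 and 91.7. Immediate early genes, fast-responding transcription factors and their regulators, were highest in NoUVB 3, at 2145, 2103 and 3013 CPM, with 17 of 20. Fos stood at 139, 97.9 and 325 CPM. Il6 gave 3 counts in each library.

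Melanocyte genes were present although the strain is albino: Dct stood at 70.7, 61.7 and 57.8 CPM and Tyr at 11.6, 11.2 and 8.46. A level does not read the albino allele. Xist, the RNA that coats the inactive X chromosome, stood at 2440, 2573 and 2605 CPM, and of the Y chromosome genes Ddx3y and Eif2s3y were at 0 in all 3, Uty gave 0, 1 and 1 counts and Kdm5d 0, 3 and 1.

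**Figure D3:**
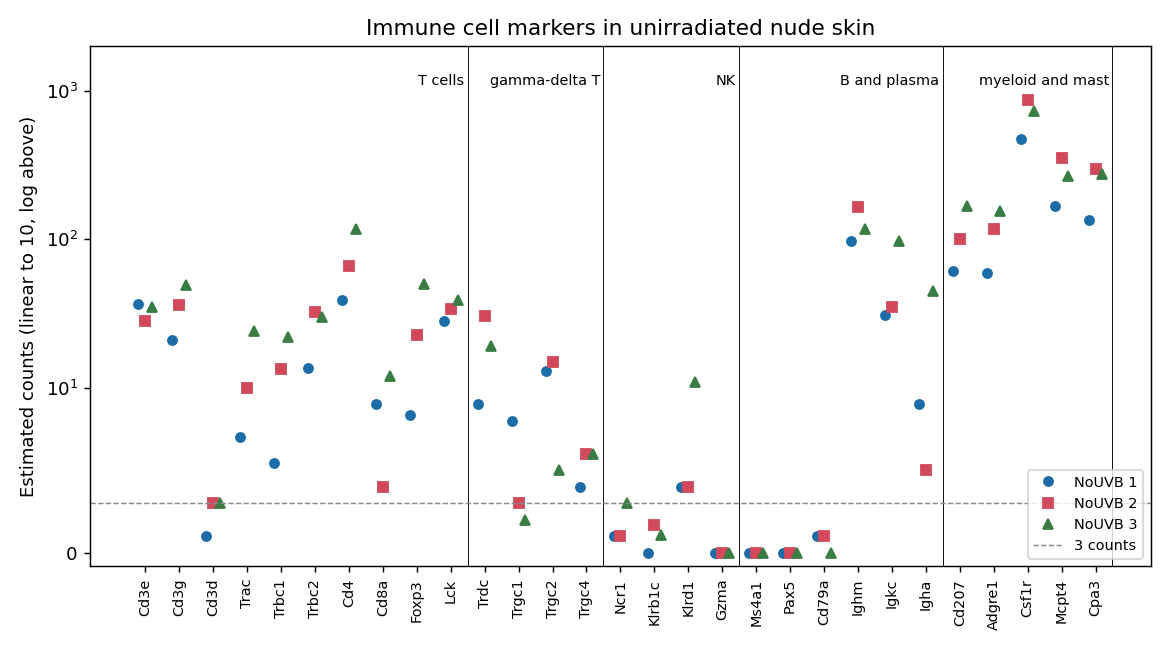
Estimated counts (linear to 10, log above) of immune cell markers, 1 point for each unirradiated library, with a dashed line at 3 counts. Ms4a1, Pax5 and Gzma sit at 0 in every library, while Csf1r, Mcpt4 and Cpa3 exceed 100 counts in every library.

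**Figure D4:**
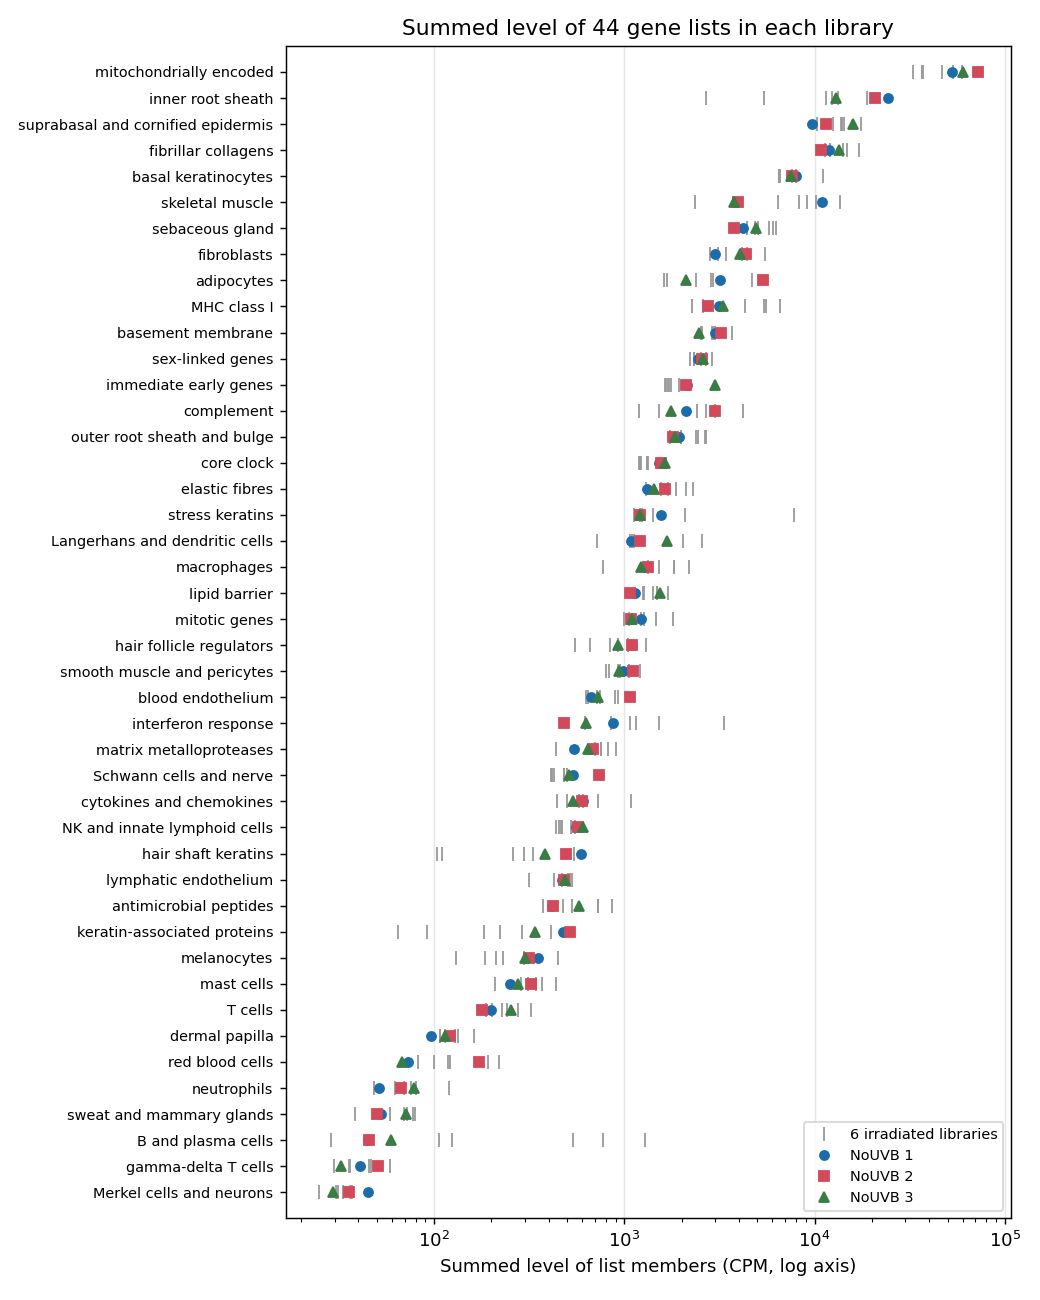
Summed level (CPM, log axis) of 44 gene lists in the 3 unirradiated libraries (coloured) and the 6 irradiated ones (grey ticks). The inner root sheath reaches 24451 CPM in NoUVB 1, and B and plasma cell genes stay below 60 CPM in all 3, within an irradiated range of 28.8 to 1287 CPM.

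Most genes were close to equal across the 3 libraries. The SD of log2 CPM had a median of 0.19 over detected genes. Over 18408 genes of at least 1 CPM on average, the median was 0.21 in NoUVB, 0.25 in UVB_Saline and 0.21 in UVB_hCOL3A1. Between pairs of unirradiated libraries, 1.52%, 1.43% and 1.56% of the 10987 genes of at least 10 CPM differed over 2-fold.

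A chi-square test against counting error alone, adjusted by Benjamini-Hochberg over 15948 genes, called 3320 genes, 20.8%. It called 10.2% of genes under 10 CPM, 19.9% of those of 10 to 100 CPM and 50% of those of at least 100 CPM. It called 19 of 19 skeletal muscle, 13 of 15 adipocyte, 11 of 12 inner root sheath, 6 of 10 basal keratinocyte and 4 of 18 mitotic genes. The total was 2453 without NoUVB 1, 1753 without NoUVB 2 and 1551 without NoUVB 3, each with fewer libraries compared.

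Among genes of at least 10 CPM, leaving out Gm and Rik genes and the mitochondrial ones, the largest spreads were of AA474408, a transcript model without a gene name, at 250.4, 21.2 and 103 CPM, of Cd300ld5, a myeloid receptor gene, at 13.9, 1.54 and 16.6 CPM, and of Cxcl9, a chemokine induced by interferon gamma, at 58.8, 6.26 and 35.2. All 3 were lowest in NoUVB 2. AA474408 and Cxcl9 were also highest in NoUVB 1, the same order of libraries as for Lars2 and the Rn18s-rs5 share. The part of that share in their levels was not tested. Nnat, neuronatin, stood at 22.1, 178 and 31.2 CPM and Cyp2g1 at 11.1, 65.5 and 20.7, both highest in NoUVB 2. Of the 15 genes of largest spread, Actn3, Myh4, Trdn, Myh1 and Mylk2 are muscle genes, and each was highest in NoUVB 1. Among genes of at least 50 CPM, the smallest spread was that of Capg, an actin-capping protein, at 61.4, 61.5 and 61.4 CPM, and Iqgap1, a scaffold protein, stood at 598, 596 and 595. Neither was called by the counting test.

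**Figure D5:**
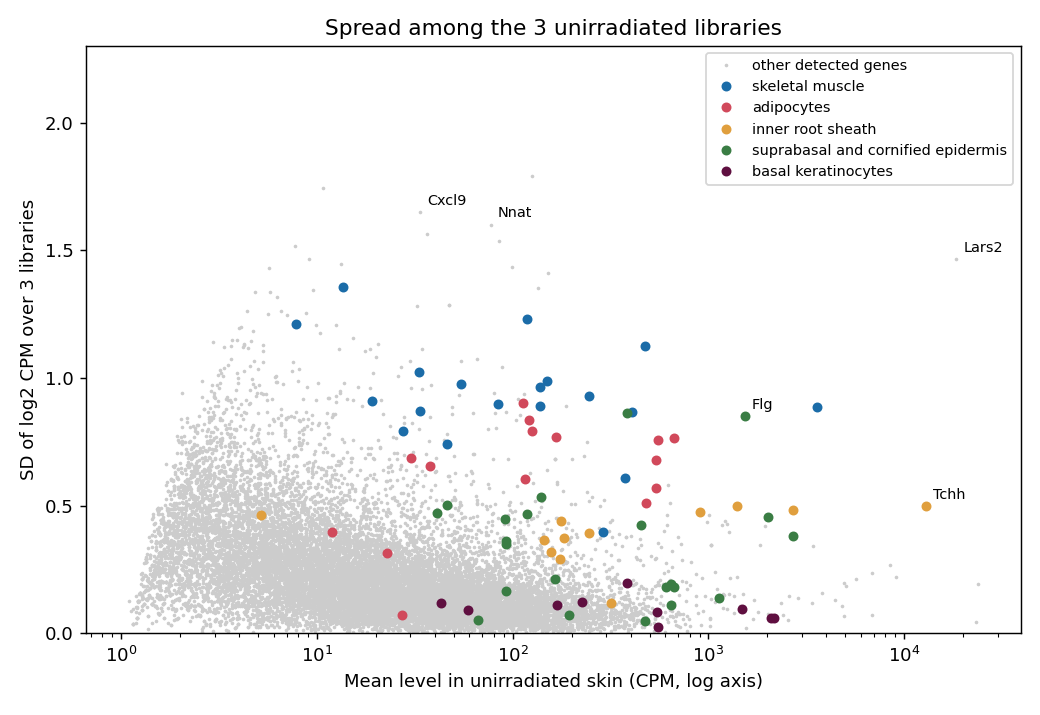
SD of log2 CPM over the 3 unirradiated libraries (vertical) against mean level (CPM, log axis) for detected genes, with 5 gene lists coloured. Skeletal muscle (blue) and adipocyte genes (red) lie mostly above the cloud of other genes, whose median is 0.19, and basal keratinocyte genes lie low in it.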

How the data were processed

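RNA was measured in 9 mouse skin libraries made from TRIzol-extracted total RNA and sequenced as paired 150 bp Illumina reads, per the labels' protocols. What the authors deposited is a single table of estimated counts, with 57180 genes in rows. GRCm39, RSEM 1.3.3, STAR 2.7.11b, Bowtie2 2.5.4, DESeq2 1.44.0 and fastp 0.23.4 appear in the submitters' processing notes, without role or order. The annotation release and strandedness were not given in the sources used here. Reads of overlapping or antisense genes therefore cannot be separated, and near-identical genes share estimated counts.

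Ribosomal, small structural and miRNA hairpin genes (3991) were left out. The rest were scaled by TMM over the 9 libraries in edgeR 4.0.16 (R 4.3.3). TPM used joined exon lengths of GENCODE M21 (GRCm38), which cover genes holding 99.2% of the remaining counts. SDs are of log2 CPM with a prior count of 2. Detected means at least 1 CPM in all 3 libraries. The counting test is a chi-square with 2 degrees of freedom on genes with a mean of at least 10 counts. On data simulated with counting error alone, changes were planted only in genes of higher mean counts than that minimum. The test recovered 98% of these 2-fold and 100% of these 4-fold changes, with 11 unchanged genes called. Further spread between libraries was not simulated, so these shares do not describe all genes tested here. Each library counted as 1 replicate. Chi-square per degree of freedom between unirradiated libraries was 8.65 to 14.7. That is more than counting error alone, but it cannot tell separate animals from separate preparations. No test between groups was made.

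The text names the 25 genes highest per length, up to 4 of each of 44 lists by mean CPM, the 15 largest and 10 smallest spreads, and 26 fixed genes. Not every gene so selected is reported here, and some list members were named after their values were seen. Members and lists were chosen with earlier results of these data known. Promoter sequences are from RefSeq (GRCm38.p6), and the TATAAA search was added after the levels were seen.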

Additional observations from a re-analysis of the deposited data

How the results depend on the processing

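Of 528 levels recomputed with DESeq2 size factors or library size alone, 13 moved by more than 1 SD between libraries, and 11 of these are of the genes chosen for the smallest spread. Leaving out a library moved Lars2 and skeletal muscle, as given above, by more CPM than a change of scaling did, but by less than 1 SD. With 3 libraries, leaving 1 out cannot move a mean by as much as 1 SD. Scaling by library size alone moved every gene by at most 0.02 on the log2 scale. By the mean log2 deviation of detected members, the highest library was the same under each scaling in 43 of 44 lists. The exception was basement membrane. This check did not use the summed CPM, which put the highest library elsewhere in some lists, among them macrophages. The share held by the 100 most abundant genes, 25.2%, became 59.9% with no RNA class left out, 20.98% without mitochondrially encoded genes, 43.3% per kilobase, and 23.9% without Lars2, an alternative added after seeing the data. The median spread of 0.19 became 0.32 over all genes with any count, by including genes of few counts. The 3320 genes beyond counting error became 1551 to 2453 with 1 library left out. They became 641 in edgeR's negative binomial test with a biological coefficient of variation of 0.1, which allows more spread by construction. The common coefficient estimated from the same unirradiated libraries was larger, at 0.144. Depth limits what can be said of genes on few counts, among them many lymphocyte, neutrophil, Merkel cell and sweat gland markers. No paired analysis was possible because no result here comes from a test between groups.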
